A study of Ovis aries with 8 samples.

Results

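The genes described here encode the ribosomal proteins of sheep: those of the cytosolic ribosome, which translates messenger RNAs from the nucleus, and those of the mitochondrial ribosome. Their transcripts were counted by RNA sequencing in the mediobasal hypothalamus, the block at the base of the brain that holds the arcuate nucleus. Members were the rows of the count table whose symbol has the form of a ribosomal protein name (RPL, RPS, RPLP0 to RPLP2, RPSA, MRPL or MRPS with a number) and whose total over all pools was at least 80 counts. Of 33609 genes listed, 153 rows had such a symbol and 152 reached that total. They comprised 78 rows of cytosolic ribosomal proteins, with 45 of the large and 33 of the small subunit, and 74 of mitochondrial ribosomal proteins, with 48 of the large and 26 of the small subunit.

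One group of ewes was food-restricted and the other was fed ad lib (well-fed). All were adults of the Ile-de-France breed, and the labels name no other treatment, no length of the restriction and no allele or transgene. RNA was extracted from 60 ewes of each group, 30 in each of 2 years, and RNA of 15 ewes drawn at random was mixed in equal amounts into each of 4 pools per group. In what follows n counts pools, the spread is that between mixes of 15 ewes, and no label ties a pool to a year. In such bulk RNA, fewer cells of a type and less RNA per cell cannot be told apart.

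Each ribosomal subunit is an assembly of ribosomal RNA with a large number of proteins, most of them present as a single copy, so that the cell needs its ribosomal proteins in about equal numbers. In mammals the messenger RNAs of the cytosolic ribosomal proteins carry a pyrimidine-rich start that ties their translation to the nutrient sensor mTORC1. The mitochondrial ribosome translates the few messenger RNAs of the mitochondrial genome, which encode core subunits of the respiratory chain, while all its proteins are encoded in the nucleus.

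Total counts were between 41261774 and 42964514 in food-restricted pools and between 36192025 and 48125991 in well-fed pools. Of the genes listed, 18193 had enough counts to be tested, and all 152 members were among them. All 10 markers checked for the arcuate nucleus and mediobasal hypothalamus had enough counts to be tested, among them POMC, TAC3 and NKX2-1. The first principal component of the tested genes other than the members held 34.6% of the variance and set food-restricted pools 1 and 2 with well-fed pools 3 and 4 apart from the other 4 pools. Both feeding groups thus stood on both sides of this division, and it returns in the members below. The sides are the signs of the component, and food-restricted pool 4 lay closest to the divide. It was at 9.13, while the other pools on its side were between 32.6 and 64.3. Values are given as CPM, read counts scaled to a library of 1e+06 reads after correction by the trimmed mean of M values (TMM). CPM follow transcript length, so that only values of the same gene, or of the same set of genes, are compared.

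The rule took in 72 of the 77 proteins counted here as the standard cytosolic set, and 5 paralogues (RPL3L, RPL7L1, RPL22L1, RPL26L1 and RPS27L). RPS26 was listed on 2 rows, which are given by gene ID. RPL17, RPL23, RPL34, RPL39 and RPL41 had no row under their own symbol. At the threshold of 80 counts, MRPS26 lay outside with 9 counts in all, of which 5 were in food-restricted pool 4 and 4 in well-fed pool 1. MRPL57 was the lowest member inside with 239 counts, RPL3L was next with 313, and MRPL36 followed with 2016. Ribosomal protein genes have numerous near-identical copies in mammalian genomes, and how the counting treated reads shared by several genes is not given in the sources used here, so every value below may lack or include reads of such copies.

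No ribosomal protein transcript passed the test between food-restricted and well-fed pools. By edgeR's quasi-likelihood test 0 of 152 members had an adjusted p under 0.05, where 0.00550% of all tested genes (1 of 18193) did. At an unadjusted p under 0.05 the test found 0 of 152 members, against 1.70% of all tested genes, and DESeq2 and limma voom also found 0 at both limits. In 0 of 152 members did the food-restricted pools lie apart from the well-fed pools without overlap, as they did in 1.60% of all tested genes. The log2 fold changes (food-restricted over well-fed) ran from -0.31 for MRPL57, the member with the fewest counts, to 0.48 for RPL3L, the next lowest in counts. Their SE had a median of 0.16. For 119 of the 152 members the 95% interval of the fold change lay wholly within 1.5-fold in either direction, and for 143 within 2-fold. For the remaining members the interval reached past these bounds.

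**Figure D1:**
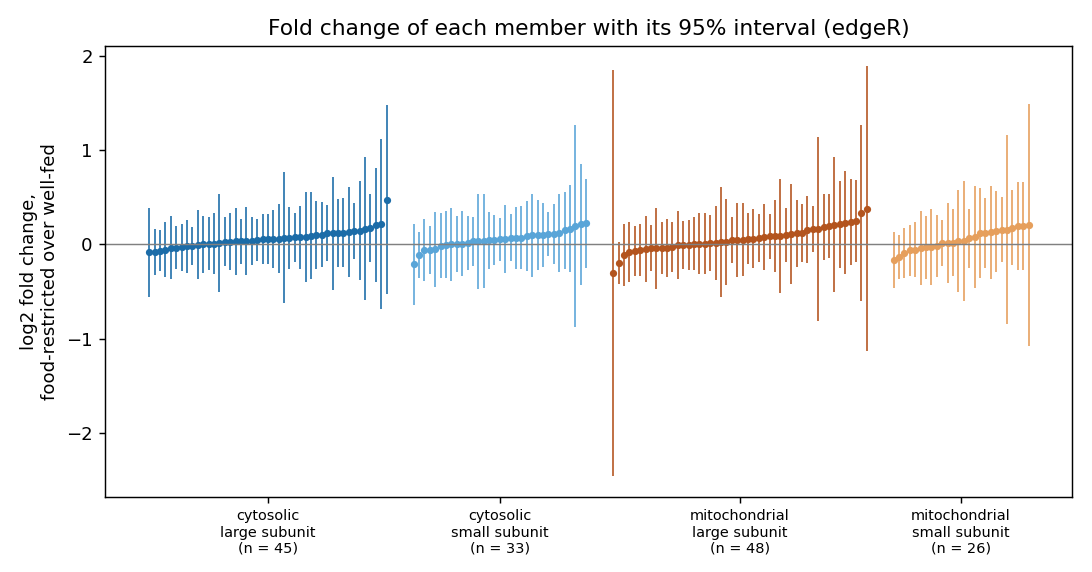
Log2 fold change of each of the 152 members, food-restricted over well-fed pools (vertical axis), as a point with its 95% interval from edgeR as a line; members are ordered by fold change within each subunit class (horizontal axis). All intervals cross 0, and the widest belong to MRPL57 and MRPL41 of the mitochondrial large subunit.

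Most members lay slightly above 0. In the cytosolic set 59 of 78 members had a log2 fold change above 0 and 19 below, with a median of 0.06. In the mitochondrial set 50 of 74 were above 0 and 24 below, with a median of 0.05. Over all genes tested 52.9% were above 0, and the median was 0.01. By subunit the medians were 0.06 for the cytosolic large subunit (34 of 45 above 0), 0.05 for the cytosolic small subunit (25 of 33), 0.05 for the mitochondrial large subunit (33 of 48) and 0.04 for the mitochondrial small subunit (17 of 26). The sign of these medians rested on well-fed pool 1: without it, the cytosolic median was -0.03 and the mitochondrial median -0.03. Without well-fed pool 4 the medians were 0.15 and 0.12, and without both of these pools 0.06 and 0.04. Among food-restricted pools 1 and 2 against well-fed pools 3 and 4, the median log2 difference of the cytosolic set was -0.04, with 25 of 78 members above 0, and that of the mitochondrial set 0.00, with 37 of 74. Among food-restricted pools 3 and 4 against well-fed pools 1 and 2, it was 0.16 in the cytosolic set, with 72 of 78 members above 0, and 0.11 in the mitochondrial set, with 51 of 74. Over all genes tested, 9178 of 18193 were above 0 in the first of these comparisons (median 0.00) and 9400 in the second (median 0.01). The second comparison holds well-fed pool 1, the lowest pool in both sets. The split was taken from these same libraries and members move together, so the counts are a description with no test.

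The level of each set as a whole moved between pools of the same group by more than it differed between the groups. The cytosolic members together took 4.82%, 3.94%, 4.51% and 4.56% of all counts in food-restricted pools 1 to 4, against 3.52%, 4.48%, 3.99% and 5.02% in well-fed pools 1 to 4. The lowest and the highest share were thus both well-fed. The means were 4.46 ± 0.367% in food-restricted pools and 4.25 ± 0.641% in well-fed pools (SD, n = 4 each). The mitochondrial members together took 0.370%, 0.336%, 0.332% and 0.328% of all counts in food-restricted pools 1 to 4, against 0.283%, 0.333%, 0.335% and 0.369% in well-fed pools 1 to 4, with means of 0.342 ± 0.0193% and 0.330 ± 0.0354% (SD, n = 4 each). On the log2 scale, where each member counts equally, the cytosolic set averaged 8.73 ± 0.103 in food-restricted and 8.65 ± 0.261 in well-fed pools, and the mitochondrial set 5.27 ± 0.132 and 5.20 ± 0.239 (mean log2 CPM, SD, n = 4 each). The difference of 0.08 in the cytosolic and 0.07 in the mitochondrial set was smaller than the SD between the pools of either group.

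**Figure D2:**
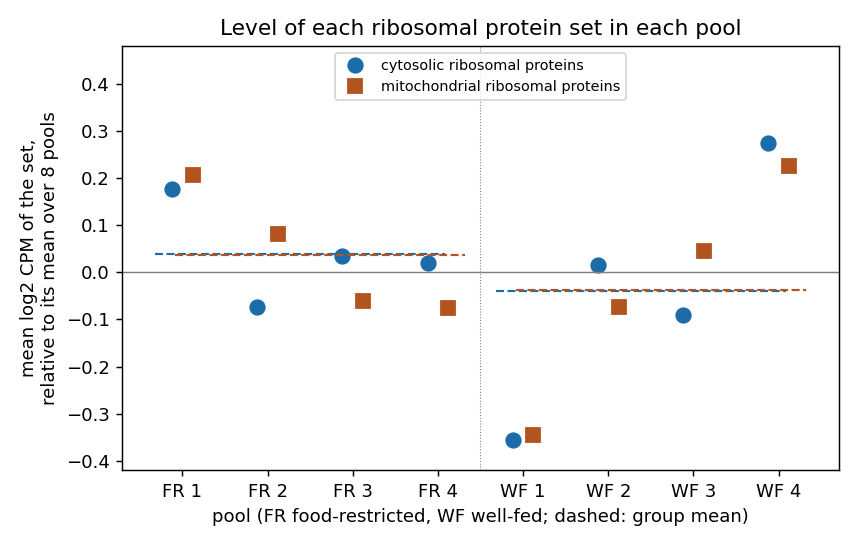
Mean log2 CPM of the cytosolic (circles) and mitochondrial (squares) ribosomal proteins in each pool, relative to the mean of the set over all 8 pools; dashed lines are group means (n = 4 pools each, FR food-restricted, WF well-fed). Well-fed pool 1 is lowest in both sets, at -0.36 and -0.35, and well-fed pool 4 highest, at 0.28 and 0.22.

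Well-fed pools 1 and 4 marked the ends of the range for a large part of the members. Well-fed pool 1 was the lowest of all 8 pools in 48 of 78 cytosolic and 37 of 74 mitochondrial members, against 12.3% of all tested genes. Well-fed pool 4 was the highest in 42 of 78 cytosolic and 19 of 74 mitochondrial members, against 8.52% of all tested genes. Well-fed pool 1 had 44855182 counts and well-fed pool 4, the shallowest, 36192025, and their TMM factors were 1.02 and 0.982. The summed CPM of the 10 arcuate and mediobasal hypothalamus markers was 696 to 1037 in food-restricted and 469 to 981 in well-fed pools. The lowest sum was in well-fed pool 1 and the highest in food-restricted pool 1, and none of the 10 was at 0. The sum includes AGRP, at a mean of 155 CPM in food-restricted and 50.7 CPM in well-fed pools, and POMC, with a 7.11-fold range over pools. TBX3 (140 and 128 CPM) and ISL1 (55.9 and 56.6 CPM) of the same list differed less between the groups. The 6 neuron markers summed to between 1878 and 2465 CPM in food-restricted pools and between 1896 and 2205 CPM in well-fed pools, and the 5 oligodendrocyte markers to between 3351 and 4713 CPM and between 3321 and 4809 CPM. Endothelium markers summed to between 87.9 and 105 CPM in food-restricted pools and between 94.6 and 97.4 CPM in well-fed pools, and markers of tanycytes and ependyma to between 473 and 511 CPM and between 442 and 564 CPM. Astrocyte markers summed to between 7360.0 and 8814 CPM in food-restricted pools and between 7920.2 and 8902 CPM in well-fed pools, microglia markers to between 306 and 344 CPM and between 283 and 355 CPM, and 3 pituitary markers to between 894 and 1616 CPM and between 946 and 1551 CPM. The part of these markers in the level of the ribosomal proteins was not tested.

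Cytosolic ribosomal protein transcripts moved together from pool to pool. Over the 8 pools the log2 CPM of a cytosolic member had a median correlation of 0.71 with the mean of the other cytosolic members, and 70 of 78 members had a correlation above 0.5, while 0 were below 0. Of the tested genes that are no member, 10.5% reached 0.5 with the same mean. The mitochondrial members followed their own mean less uniformly, with a median correlation of 0.57, 40 of 74 above 0.5 and 12 below 0, where 20.4% of the other tested genes were above 0.5. The means of both sets had a Pearson correlation of 0.85 and a Spearman correlation of 0.62 over the 8 pools. These correlations describe pools that share library and scaling, and the members of a set are not independent of each other.

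The mitochondrial set was set against the cytosolic set within each pool, where the depth of the library cancels. The mean log2 CPM of the mitochondrial members minus that of the cytosolic members was -3.42, -3.30, -3.55 and -3.55 in food-restricted pools 1 to 4, against -3.44, -3.54, -3.32 and -3.50 in well-fed pools 1 to 4. Food-restricted pool 2 and well-fed pool 3 had the highest values, and the groups overlapped over nearly their whole range. The group means were -3.46 ± 0.12 in food-restricted and -3.45 ± 0.10 in well-fed pools (SD, n = 4 each), a difference of -0.0036.

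A subset of members followed the division of the pools seen in the first principal component, and MRPL57, MRPL41, MRPS25, MRPS2, RPS15, RPLP2 and RPL13, which had a large spread within their subunit classes, were among them. In 17 of 78 cytosolic and 29 of 74 mitochondrial members, food-restricted pools 1 and 2 and well-fed pools 3 and 4 all lay above the other 4 pools, against 14.2% of all tested genes. The opposite order was found in 0 of 78 cytosolic and 1 of 74 mitochondrial members (MRPL51), against 8.93% of all tested genes. Of the 43 tested marker genes of cell types and of the arcuate nucleus, 6 were higher in those 4 pools without overlap. In the opposite order 3 were lower, where these shares over all tested genes were 14.2% and 8.93%. The 6 were CLDN5 of endothelium (4.99-fold, geometric mean of the 4 pools over the other 4), POMC (3.85-fold) and TH (3.15-fold) of the arcuate list, MBP (1.87-fold) and MAG (1.57-fold) of oligodendrocytes, and FOXJ1 of ependyma (1.48-fold). The 3 were SLC1A3 of astrocytes, P2RY12 of microglia and FLT1 of endothelium, so that endothelium had a marker in either order. Their part in the division among ribosomal proteins was not tested. Since the pools were divided by these libraries' own values, the counts are given as a description with no test, and the source of the division is not given in the labels.

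**Figure D3:**
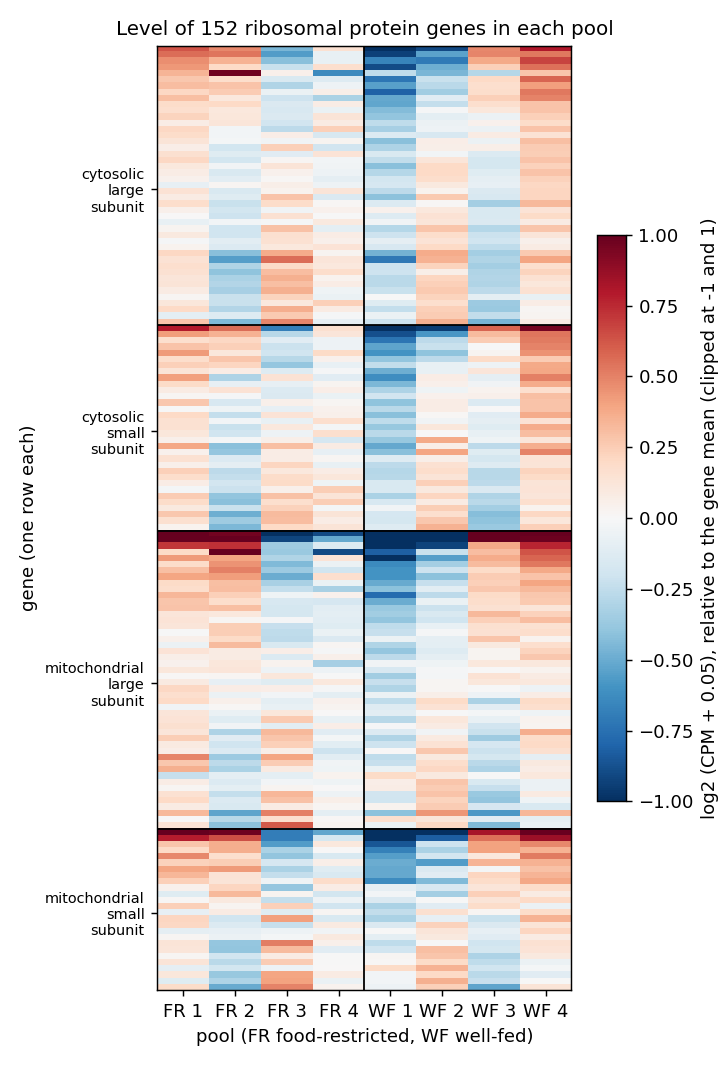
Level of each of the 152 members (rows) in each of the 8 pools (columns; FR food-restricted, WF well-fed), as log2 of CPM plus 0.05 relative to the mean of the gene, with colours clipped at -1 and 1. Rows are ordered within each subunit class by the difference between FR 1, FR 2, WF 3 and WF 4 and the other 4 pools; the upper rows of each class are red in those 4 pools and blue in the others, and WF 1 is blue in most rows.

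In the mitochondrial large subunit the division was wide in MRPL41. MRPL41 was at 55.8, 63.0, 12.9 and 17.0 CPM in food-restricted pools 1 to 4, against 6.96, 9.54, 49.8 and 48.2 CPM in well-fed pools 1 to 4. On either side of the division both food-restricted pools lay above both well-fed pools, while the groups as a whole overlapped widely. The division came from these same libraries and MRPL41 was named for its spread, so this order is a description with no test. The log2 fold change of MRPL41 without a covariate was 0.38 (SE 0.68). With the side of the principal component as a block it was 0.56 (SE 0.15), with an unadjusted p of 0.00222 and an edgeR adjusted p of 0.887. As the block was drawn from the same libraries, the unadjusted p is no independent evidence of a difference. In that fit 7 of 152 members had an unadjusted p under 0.05, where 4.49% of all tested genes did, and 0 of 152 had an adjusted p under 0.05, where 0.0330% (6 genes) did. Besides MRPL41 these included MRPL40, RPLP2, MRPS25 and MRPL20, with log2 fold changes between 0.27 and 0.47, and MRPL49 at -0.20 (SE 0.09). MRPL40 was at 46.3, 46.7, 21.9 and 25.5 CPM in food-restricted pools 1 to 4, against 12.4, 14.8, 36.6 and 47.8 CPM in well-fed pools 1 to 4. MRPL57, the member with the fewest counts, had 54, 38, 6 and 9 counts in food-restricted pools 1 to 4, against 3, 6, 76 and 47 counts in well-fed pools 1 to 4.

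In the mitochondrial small subunit MRPS25 and MRPS2 (a counterpart of the bacterial protein S2) had the largest spread. MRPS25 was at 27.9, 27.3, 8.56 and 9.65 CPM in food-restricted pools 1 to 4, against 5.08, 6.32, 24.6 and 27.6 CPM in well-fed pools 1 to 4. MRPS2 was at 50.04, 45.4, 17.9 and 25.7 CPM in food-restricted pools 1 to 4, against 13.2, 16.4, 42.7 and 52.6 CPM in well-fed pools 1 to 4. The same 4 pools lay above the other 4 in both genes, and the feeding groups overlapped over most of their range, with log2 fold changes of 0.21 (SE 0.58) and 0.16 (SE 0.45). MRPS12, the counterpart of the bacterial decoding-site protein S12, showed the same order with a smaller step, at 34.7, 35.0, 26.3 and 30.7 CPM in food-restricted pools 1 to 4, against 20.9, 20.04, 37.4 and 37.7 CPM in well-fed pools 1 to 4.

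In the cytosolic ribosome the same order was found in RPS15, a protein of the small subunit's head, and in RPLP2, one of the acidic proteins of the stalk that recruits elongation factors. RPS15 was at 529, 449, 189.6 and 342 CPM in food-restricted pools 1 to 4, against 114, 158, 457 and 592 CPM in well-fed pools 1 to 4. RPLP2 was at 394, 355, 185 and 283 CPM in food-restricted pools 1 to 4, against 113, 136, 356 and 443 CPM in well-fed pools 1 to 4. Food-restricted pool 4 stood between the other low pools and the high ones in both genes. RPL13 of the large subunit was at 743, 734, 343 and 479 CPM in food-restricted pools 1 to 4, against 264, 348, 708 and 728 CPM in well-fed pools 1 to 4. The geometric mean level of the 4 high pools over that of the other 4 was 2.72-fold in RPS15, 2.29-fold in RPLP2 and 2.08-fold in RPL13, while it was 4.89-fold in MRPL41, 3.72-fold in MRPS25, 2.67-fold in MRPS2 and 2.46-fold in MRPL40. None of these genes passed between the groups (log2 fold changes 0.16 to 0.38, SE 0.34 to 0.68).

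**Figure D4:**
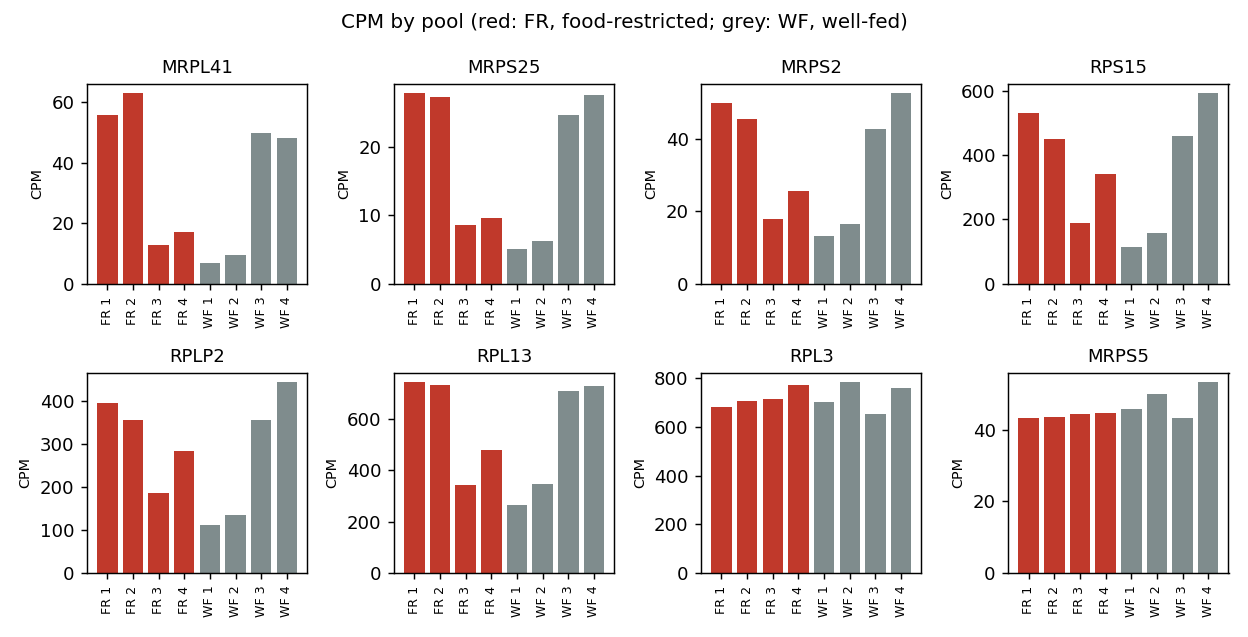
CPM of 8 members in each pool (red, FR, food-restricted; grey, WF, well-fed; bars start at 0, each panel has its own scale). MRPL41, MRPS25, MRPS2, RPS15, RPLP2 and RPL13 are high in FR 1, FR 2, WF 3 and WF 4, while RPL3 stays between 651 and 783 CPM and MRPS5 between 43.2 and 53.3 CPM.

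Partners within the same structure could differ in spread. The stalk of the cytosolic large subunit is built on RPLP0, which carries RPLP1 and RPLP2. RPLP0 was at 863, 888, 718 and 866 CPM in food-restricted pools 1 to 4, against 685, 786, 843 and 931 CPM in well-fed pools 1 to 4, a 1.36-fold range. RPLP1 was at 1739.8, 1480.5, 1101 and 1447 CPM in food-restricted pools 1 to 4, against 693, 919, 1518 and 1886 CPM in well-fed pools 1 to 4, a 2.72-fold range, and RPLP2 had a 3.93-fold range. The log2 fold changes of the 3 genes were 0.04 (SE 0.11), 0.20 (SE 0.27) and 0.22 (SE 0.41).

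Other members did not take part in the division. RPL37A was at 572, 352, 760.3 and 564 CPM in food-restricted pools 1 to 4, against 315, 657, 420.4 and 681 CPM in well-fed pools 1 to 4, with food-restricted pool 2 and well-fed pools 1 and 3 low. RPS4X, the X-linked small-subunit protein, was likewise lowest in well-fed pool 3 and food-restricted pool 2, at 1154, 809.9, 1281 and 1089 CPM in food-restricted pools 1 to 4, against 917, 1245, 784 and 1118 CPM in well-fed pools 1 to 4. RPL3, a protein near the peptidyl transferase centre, was steady at 683, 706, 713 and 771 CPM in food-restricted pools 1 to 4, against 702, 783, 651 and 761 CPM in well-fed pools 1 to 4. Its log2 fold change was -0.01 (SE 0.09), with a 95% interval from -0.21 to 0.19. MRPL44 had the smallest spread of all members (SD of log2 CPM within groups 0.073), at 33.5, 29.5, 33.4 and 30.9 CPM in food-restricted pools 1 to 4, against 28.6, 30.8, 30.5 and 29.9 CPM in well-fed pools 1 to 4.

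The spread between pools was compared with that of genes of similar level. The SD of log2 CPM between pools of the same group had a median of 0.25 in the cytosolic set and 0.24 in the mitochondrial set, against 0.27 over all genes tested. The 200 other tested genes nearest in mean log2 CPM to each member had a median SD of 0.16 for the cytosolic and 0.20 for the mitochondrial members, and 67 of 78 cytosolic and 47 of 74 mitochondrial members lay above their own neighbours. In the cytosolic set the median SD was 0.19 in food-restricted and 0.28 in well-fed pools, and in the mitochondrial set 0.21 and 0.24. Over all genes tested the order was the opposite, with 0.28 in food-restricted and 0.24 in well-fed pools. The highest pool exceeded the lowest by more than 2-fold in 15 of 78 cytosolic and 18 of 74 mitochondrial members, against 37.7% of all tested genes. That share was not matched for level, so it does not show the members to be steadier than genes of their level.

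**Figure D5:**
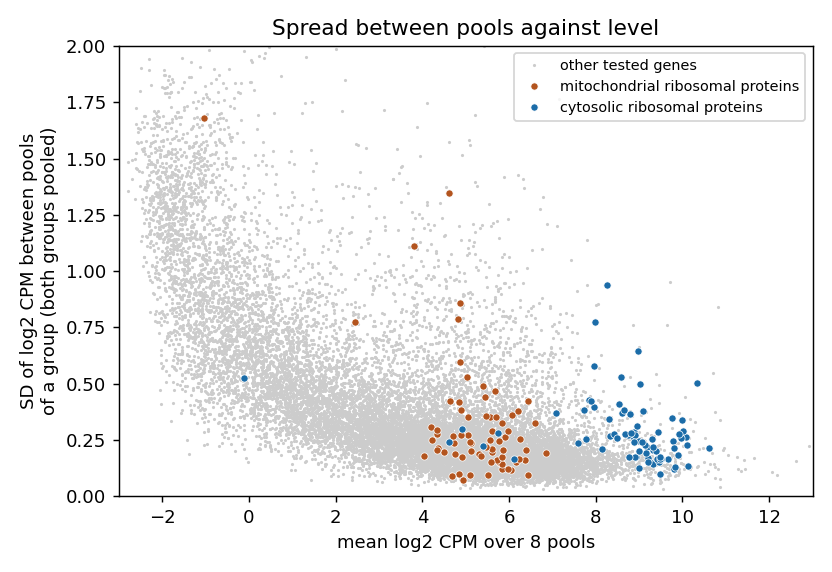
SD of log2 CPM between pools of the same group (vertical axis, both groups pooled) against mean log2 CPM over 8 pools (horizontal axis), for cytosolic (blue) and mitochondrial (orange) ribosomal proteins and all other tested genes (grey; 26 lie beyond the axes). Most cytosolic members lie on the right at SDs between 0.1 and 0.5, above the densest part of the grey cloud at their level. MRPL57, the member with the fewest counts, MRPL41 and MRPS25 stand above 1.

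The members nearest to the test's threshold between the feeding groups came from the mitochondrial ribosome. MRPL49 had the smallest p of all 152 members and was at 74.2, 81.5, 81.4 and 89.5 CPM in food-restricted pools 1 to 4, against 99.7, 93.4, 87.2 and 93.9 CPM in well-fed pools 1 to 4. Only food-restricted pool 4 reached into the well-fed range. Its log2 fold change was -0.20 (SE 0.10, unadjusted p = 0.0813, edgeR adjusted p = 1), and the exact permutation test of its log2 CPM (two-sided) gave p = 0.0571, where the smallest p that 4 pools against 4 allow is 0.0286. MRPL9 was at 72.9, 66.5, 66.2 and 62.9 CPM in food-restricted pools 1 to 4, against 51.3, 64.0, 63.2 and 61.2 CPM in well-fed pools 1 to 4, with a log2 fold change of 0.16 (SE 0.11, exact permutation p = 0.0857). MRPS5, a protein of the mitochondrial small subunit, was steady among the food-restricted pools, at 43.2, 43.5, 44.3 and 44.7 CPM, against 45.8, 49.98, 43.4 and 53.3 CPM in well-fed pools 1 to 4 (log2 fold change -0.13, SE 0.11). Also among the 4 members with the smallest p of their subunit class were MRPL47 and MRPL32 of the large subunit. Their log2 fold changes were 0.20 (SE 0.15) and 0.25 (SE 0.20). MRPS27, MRPS30 and MRPS36, chosen likewise in the small subunit class, were at -0.17 (SE 0.13), 0.16 (SE 0.16) and 0.18 (SE 0.18). MRPS36 is placed in this class by its name, although its protein is now known as a subunit of the 2-oxoglutarate dehydrogenase complex. The unadjusted edgeR p of MRPS30 (0.339) and MRPS36 (0.349) was larger than that of the cytosolic RPL9 (0.300).

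Among cytosolic members the smallest unadjusted p was 0.300, for RPL9. RPL9 was at 1121, 796, 1256 and 1035 CPM in food-restricted pools 1 to 4, against 825, 1152, 754 and 989 CPM in well-fed pools 1 to 4 (log2 fold change 0.18, SE 0.16). RPS29 was at 324, 239.8, 330.3 and 297 CPM in food-restricted pools 1 to 4, against 234, 414, 289 and 442 CPM in well-fed pools 1 to 4 (log2 fold change -0.21, SE 0.20). In both genes the pools of the groups were interleaved. RPS10 and RPS12 of the small subunit had log2 fold changes of 0.22 (SE 0.21) and -0.11 (SE 0.11), and RPL7A and RPL12 (which lies at the base of the stalk) of 0.14 (SE 0.13) and 0.12 (SE 0.13). RPSA, which is also known as a laminin receptor, was at 667 ± 56.6 CPM in food-restricted pools, against 618 ± 70.2 CPM in well-fed pools (SD, n = 4 each; log2 fold change 0.11, SE 0.11). RPS6, the small-subunit protein that S6 kinase phosphorylates downstream of mTORC1, was at 591 ± 77.4 CPM in food-restricted pools, against 574 ± 94.0 CPM in well-fed pools (SD, n = 4 each; log2 fold change 0.04, SE 0.14). RPL10, which joins the large subunit late in its assembly, was at 604 ± 64.5 CPM in food-restricted pools, against 592 ± 79.2 CPM in well-fed pools (SD, n = 4 each; log2 fold change 0.03, SE 0.12).

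Several ribosomal proteins have paralogues that can take their place in the ribosome of some tissues. The ratio of paralogue to main form can be compared between pools, although not read as a proportion, since CPM follow transcript length. RPL22L1 was at 27.6, 20.9, 27.7 and 24.6 CPM in food-restricted pools 1 to 4, against 22.3, 24.6, 19.3 and 30.6 CPM in well-fed pools 1 to 4, and RPL22, an RNA-binding protein of the large subunit, was at 435 ± 119 CPM and 397 ± 96.7 CPM (SD, n = 4 each). The log2 ratio of RPL22L1 to RPL22 was -4.07 ± 0.23 in food-restricted and -4.02 ± 0.26 in well-fed pools (SD, n = 4 each). That of RPS27L to RPS27 was -3.01 ± 0.19 and -3.09 ± 0.31, that of RPL26L1 to RPL26 -3.48 ± 0.24 and -3.34 ± 0.20, and that of RPL7L1 to RPL7 -3.93 ± 0.09 and -3.80 ± 0.21. Each of these differences between the groups was smaller than the larger of both SDs. RPL3L, known in mice and humans as a form of striated muscle, was between 0.546 and 1.77 CPM in food-restricted pools and between 0.624 and 1.07 CPM in well-fed pools, and its log2 fold change of 0.48 had an SE of 0.45. The mitochondrial ribosome has 3 proteins related to bacterial S18. MRPS18A was at 44.3 ± 7.46 CPM in food-restricted, against 44.9 ± 5.13 CPM in well-fed pools, MRPS18B at 22.4 ± 3.11 and 22.9 ± 3.04 CPM, and MRPS18C at 21.6 ± 4.45 and 19.7 ± 4.29 CPM (SD, n = 4 each), with log2 fold changes of -0.02, -0.03 and 0.14 (SE 0.15, 0.15 and 0.19). MRPL12, a stalk protein known also to bind mitochondrial RNA polymerase, was at 59.5 ± 8.69 and 57.0 ± 8.08 CPM (SD, n = 4 each). MRPL28 was at 92.8 ± 26.1 and 85.7 ± 24.6 CPM, and MRPS21 at 114 ± 8.94 and 119 ± 19.4 CPM, while MRPS6 was at 99.5 ± 18.5 and 98.3 ± 24.2 CPM (SD, n = 4 each).

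The 2 rows of RPS26, a protein at the exit of the messenger RNA channel, did not vary alike. The row with gene ID 443468 was at 63.5, 62.2, 41.1 and 51.0 CPM in food-restricted pools 1 to 4, against 45.2, 50.9, 51.8 and 69.9 CPM in well-fed pools 1 to 4, and followed the division of the pools. The row with gene ID 106990112 was at 198, 188, 199.7 and 171 CPM in food-restricted pools 1 to 4, against 147, 248, 186 and 208 CPM in well-fed pools 1 to 4, and did not. Both had log2 fold changes near 0, at 0.00 (SE 0.18) and -0.06 (SE 0.15).

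Ribosomal proteins whose symbols fall outside the naming rule were examined in the same way, by the test that 0.00550% of all tested genes passed. Of 4 cytosolic ones, among them FAU (made as a fusion with a ubiquitin-like protein), the scaffold RACK1 and RPL36AL, 0 passed, 1 was above 0 and 3 were below, with a median log2 fold change of -0.01. Of 5 mitochondrial ones (DAP3, PTCD3, AURKAIP1, CHCHD1 and GADD45GIP1), 0 passed, 1 was above 0 and 4 were below, with a median of -0.09. GADD45GIP1 followed the division of the pools, at 27.0, 37.4, 10.6 and 12.3 CPM in food-restricted pools 1 to 4, against 8.04, 11.05, 32.0 and 32.7 CPM in well-fed pools 1 to 4 (log2 fold change 0.06, SE 0.51). DAP3, the GTP-binding protein of the small subunit, had a log2 fold change of -0.17 (SE 0.16).

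Genes that build ribosomes or act with them gave 0 calls in each of 4 lists by edgeR's test over all genes. They also gave 0 with an unadjusted p under 0.05. Of all tested genes, 0.00550% were called and 1.70% had an unadjusted p under 0.05. Of 39 translation factors 16 were above 0 and 23 below, with a median log2 fold change of -0.01. EEF1D, a subunit of the exchange factor of elongation, was at 184 ± 26.5 CPM in food-restricted, against 155 ± 36.8 CPM in well-fed pools (SD, n = 4 each; log2 fold change 0.25, SE 0.18), and EIF5A and EIF3E were at -0.14 (SE 0.10) and 0.21 (SE 0.15). Of 47 ribosome biogenesis genes 23 were above 0 and 24 below (median -0.01). UTP4, which acts in the processing of small-subunit RNA, was at 27.1, 38.0, 37.6 and 37.1 CPM in food-restricted pools 1 to 4, against 44.3, 38.4, 42.6 and 39.8 CPM in well-fed pools 1 to 4. Among these lists it was the 1 gene whose groups did not overlap, which was the case in 1.60% of all tested genes (log2 fold change -0.24, SE 0.13, unadjusted edgeR p = 0.0993, exact permutation p = 0.0286), and GAR1 and WDR12 were at 0.26 (SE 0.17) and 0.21 (SE 0.14). Of 35 tested genes of mitochondrial translation and mitoribosome assembly 19 were above 0 and 16 below (median 0.02). NSUN3, a methyltransferase of a mitochondrial transfer RNA, was at 0.41 (SE 0.23), SLIRP at -0.20 (SE 0.13) and the elongation factor TSFM at 0.20 (SE 0.13). Of 25 genes of mTOR signalling 10 were above 0 and 15 below (median -0.03). EEF2K, the kinase that inhibits elongation factor eEF2, was at 126, 128, 143 and 132 CPM in food-restricted pools 1 to 4, against 162, 170.5, 149.5 and 133 CPM in well-fed pools 1 to 4 (log2 fold change -0.22, SE 0.11). RRAGA, a GTPase of amino acid sensing, was at -0.23 (SE 0.11), and RICTOR, of the second mTOR complex, at 0.35 (SE 0.18).

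The order of the pools was counted in these lists as well. Well-fed pool 1 was lowest in 2 of 39 translation factors and 8 of 47 ribosome biogenesis genes. It was lowest in 6 of 35 mitochondrial translation genes and 1 of 25 mTOR signalling genes, against 12.3% of all tested genes. Food-restricted pools 1 and 2 and well-fed pools 3 and 4 lay above the other 4 pools in 3 of 39 translation factors, 8 of 47 ribosome biogenesis genes, 3 of 35 mitochondrial translation genes and 5 of 25 mTOR signalling genes, against 14.2% of all tested genes. They lay below the other 4 in 8 of 39, 9 of 47, 4 of 35 and 2 of 25 genes of these lists, against 8.93% of all tested genes. These counts were not tested against each other.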

How the data were processed

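Per the file headers, the authors deposited raw counts of reads in a single table, genes in rows and pools in columns. Per the labels' protocols, RNA was extracted with TriReagent and stranded mRNA libraries were built. Per the submitters' processing notes, the tools were featureCounts 2.0.0, TopHat2 2.1.1, FastQC, Bowtie2 2.3.5.1, SAMtools 1.9 and bcl2fastq 2.20. The order of their use, genome build, annotation, strand setting and treatment of shared reads were not given in the sources used here, so no coordinates are printed. RefSeq's gene table of ARS-UI_Ramb_v3.0 held 28100 of 33609 IDs and 146 of 152 members, and served only to name rows listed by LOC number. Depth is given with the results; a count of 0 allows up to 3 counts (0.0625 to 0.0845 CPM), which covers counting error alone. Within each group, every pair of pools differed by more than counting noise (chi-square over its degrees of freedom 23.9 to 160.1), so none was taken as a repeat. Nothing in the labels says that pools are free of shared ewes, so p-values measure the spread between these pools.

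The analysis of counts used edgeR 4.0.16 (R 4.3.3): filterByExpr (minimum count 10, total 15), TMM, and the quasi-likelihood test of food-restricted against well-fed pools with no covariate, adjusted over all 18193 genes (Benjamini-Hochberg, threshold 0.05). SE was derived from the log2 fold change and the F statistic. CPM are mean ± SD over pools; log2 CPM had a prior count of 2. Alternatives used RLE, upper-quartile or no scaling factors, no filter or 1 CPM in 4 pools, a replicate block, DESeq2 1.42.0, limma 3.58.1 (voom), each pool left out, and a block for the side on the first principal component; leaving out both well-fed pools 1 and 4 was chosen after seeing the data. The test was tested on simulated data in which each gene was drawn independently and the pools had no division. That run therefore does not cover members that move together. Figures used Python 3.11.15.

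Members and lists were chosen with earlier results of these data known, and sets are described without a test. The rule named 24 genes by symbol (22 with a row), and in each subunit class the 4 members with the smallest p, the 2 with the highest CPM and the 2 with the largest spread, the members next to the threshold, and 3 genes of each related list. MRPL20, MRPL36, MRPL40, MRPL44, MRPL51, RPL37A, RPS26 and GADD45GIP1 were added after their values were seen. Some genes that the rule names are not reported here. No sequences are shown.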

Additional observations from a re-analysis of the deposited data

Results flagged for a closer look

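Of 134 groups of 4 pools examined (the named genes, the levels of both sets and their difference, in each feeding group), 2 held a pool far from the other 3, where chance gives about 1 in 20. RPLP0 was at 718 CPM in food-restricted pool 3, while the other food-restricted pools were between 863 and 888 CPM. UTP4 was at 27.1 CPM in food-restricted pool 1, while the others were between 37.1 and 38.0 CPM.

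Rows listed by LOC number, which the naming rule leaves out, carry ribosomal protein symbols in the RefSeq gene table, and 5 of 7 such rows had totals above 3 counts per pool, the limit that a count of 0 allows. Of the other two, RPL10L had 4 counts, all in well-fed pool 4, and a further row of MRPL37, beside the member of that symbol, had 0. RPL23 had a total of 33794 counts over all pools and was at 98.4 ± 17.6 CPM in food-restricted pools, against 105 ± 28.7 CPM in well-fed pools (SD, n = 4 each; log2 fold change -0.09, SE 0.20). MRPL19 had a total of 7610 counts (log2 fold change -0.02, SE 0.19) and MRPS35 of 1729 counts (0.03, SE 0.25). RPL34 had a total of 233 counts, and between 0.427 and 0.988 CPM in any pool. MRPL17 had a total of 6831 counts on such a row, at 18.3, 15.7, 24.2 and 20.4 CPM in food-restricted pools 1 to 4, against 24.5, 24.1, 15.4 and 20.02 CPM in well-fed pools 1 to 4. The row that the count table itself lists as MRPL17 was at 58.8, 58.2, 47.9 and 50.7 CPM in food-restricted pools 1 to 4, against 42.7, 48.7, 67.7 and 63.7 CPM in well-fed pools 1 to 4, so the 2 rows order the pools differently.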

How the results depend on the processing

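In all 18 alternatives 0 members of either set passed the test. The medians of the cytosolic and mitochondrial sets stayed between 0.05 and 0.06 and between 0.04 and 0.05 (log2) under RLE factors, upper-quartile factors or library totals alone. With 1 pool left out they ran between -0.03 and 0.15 and between -0.03 and 0.12, and the difference of the mitochondrial minus cytosolic level ran between -0.06 and 0.04; well-fed pool 1 gave the lower and well-fed pool 4 the upper ends of the medians. With either of these pools or another left out, 24 of 62 named genes changed sign, none of which passed in any alternative; the cause was not tested. Their log2 fold changes with 1 pool left out ran, lowest to highest, as follows: MRPL12 -0.025 to 0.13, MRPL28 -0.038 to 0.27, MRPL57 -0.90 to 0.31, MRPS12 -0.014 to 0.29, MRPS18A -0.081 to 0.090, MRPS18B -0.10 to 0.043, MRPS2 -0.098 to 0.53, MRPS21 -0.14 to 0.032. Those of the next genes were MRPS25 -0.088 to 0.61, MRPS6 -0.12 to 0.14, RACK1 -0.056 to 0.046, RPL10 -0.017 to 0.12, RPL13 -0.049 to 0.39, RPL22 -0.022 to 0.29, RPL22L1 -0.019 to 0.19, RPL26L1 -0.13 to 0.047. The remaining ones were RPL3 -0.043 to 0.028, RPL36AL -0.0032 to 0.24, RPL7L1 -0.10 to 0.064, RPLP0 -0.034 to 0.11, RPLP2 -0.034 to 0.59, RPS15 -0.091 to 0.63, RPS27 -0.13 to 0.24, RPS6 -0.035 to 0.14. With both well-fed pools 1 and 4 left out, RPL3 was at 0.0014, MRPS18A at 0.014, MRPS6 at -0.025 and RACK1 at 0.0069. MRPL57, the lowest in counts, was at 0.15 with limma voom and at 0.023 with the principal component side as a block. Without food-restricted pool 2 MRPL32 (unadjusted p = 0.0451), and without well-fed pool 4 RPS10 (unadjusted p = 0.0324), came under 0.05 before adjustment by edgeR. Each was the only member to do so in its fit, where 4.44% and 1.52% of all tested genes did.

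The main fit did not pair the pools by replicate number. Deviations of same-numbered pools had correlations of -0.21, -0.42, -0.35 and -0.21 over genes. Since same-numbered pools lay on opposite sides of the first principal component, these correlations cannot decide whether the numbers mark pairs. With the replicate block 0 genes were called, against 1 without it, the medians were 0.07 and 0.06, and MRPL57 was at 0.012. Genes called over the whole table numbered 4 with DESeq2, 6 with the principal component side as a block, and 0 with any 1 pool left out. The spread between 4 pools per group limits what can be seen: 9 members had a 95% interval reaching past 2-fold.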
